A study of Mus musculus with 6 samples.

Results

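Levels of 6 amino acid transporters and 4 stress genes linked to the transcription factor Atf4 are described here across 3 knockouts: the transporters Slc7a3, Slc7a5, Slc7a11, Slc3a2, Slc1a5 and Slc38a2, and the stress genes Asns, Trib3, Ddit3 and Chac1. They were taken by name, and all 10 were found among the 21368 genes named on the arrays, on 12 of the 55681 probes. The set was chosen by pathway and by 1 measured value, the rise of Slc7a3 in Sox4 knockout cells, so values from that knockout are given as a description with no test. Earlier results of these data were known when the genes and lists were chosen. Counts in the other knockouts may therefore not be independent of the choice.

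RNA was compared in primary mouse keratinocytes, the main cells of the epidermis. Sox4 and Sox11 are transcription factors of the SoxC family, and the design compares their loss alone and combined. The knockouts were conditional: Sox4 cKO cells lacked Sox4, Sox11 cKO cells lacked Sox11 and Sox4/11 dcKO cells lacked both, with deletion by Cre under the Krt14 promoter, which is active in basal keratinocytes. The cells of all groups came from newborn pups, whose strain the labels give as 129SvEx:C57BL/6. In the study's methods that is the mixed background of the floxed stock, which was crossed to Krt14-Cre mice of strain FVB/N. They were first grown on J2 fibroblast feeders for 3 passages and then kept off feeders for at least 2 passages. That stock was also Sox12-/-, and the genotypes that the methods and labels give for the knockouts name no Sox12 allele. Each array set knockout RNA against wild-type RNA in the other dye, and the labels do not say whether arrays shared 1 wild-type culture. Each of the 3 genotypes had 2 biological replicates, with the knockout in Cy5 on replicate 1 and in Cy3 on replicate 2. Every p-value therefore rests on these arrays alone, whose number limits the precision. It uses the spread left after a term for dye, moderated by that of other probes, and not the plain spread of the 2 ratios of a genotype.

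The targeted genes were low where the labels place a deletion. The log2 ratio of knockout over wild type for Sox4 was between -2.81 and -2.23 on the 4 arrays of Sox4 cKO and dcKO, and that for Sox11 was between -3.79 and -2.65 on the 4 arrays of Sox11 cKO and dcKO. Between 35.2% and 45.1% of probes in a channel were well above background. The dcKO replicate 1 knockout channel was the lowest of the 12. All 5 keratinocyte markers (Krt5, Krt14, Trp63, Itga6 and Itgb4) were well above background in all 12 channels. Of 6 fibroblast markers, Col1a1, Col3a1, Pdgfrb and Thy1 were above background in 0 channels, Pdgfra in 1 (the knockout channel of Sox4 cKO replicate 1) and Col1a2 in 11. Because these are bulk samples, fewer cells of a type and less RNA per cell cannot be told apart.

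When amino acids run short or proteins misfold, kinases phosphorylate eIF2 and slow translation, while the mRNA of the transcription factor Atf4 is translated more. This pathway is called the integrated stress response. Atf4 binds DNA together with C/EBP proteins at composite elements and is known to raise genes for amino acid uptake and synthesis, among them Asns, and stress effectors such as Ddit3, Trib3 and Chac1. The transporters differ in cargo. Slc7a3 carries cationic amino acids such as arginine and lysine, Slc7a5 large neutral amino acids, Slc7a11 cystine in exchange for glutamate, Slc1a5 glutamine and small neutral amino acids, and Slc38a2 small neutral amino acids with sodium. Slc3a2 is the heavy chain that brings Slc7a5 and Slc7a11 to the cell surface.

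The composite element is often written with the core TGATGNAA, so these letters were searched for on both strands of RefSeq promoter windows (mouse build GRCm38.p6, 250 bases before to 50 bases after a gene's start). Windows were held for 7 of the 10 genes, all but Slc7a3, Slc7a5 and Slc1a5. The letters were in the windows of 4 of these 7 genes (Asns, Chac1, Slc7a11 and Trib3) and in 1304 of the 32851 windows searched, which is 3.97%. The windows searched did not cover every chromosome. A gene can have several windows, so this share is per window and not per gene. The letters were not in the windows of Ddit3, Slc38a2 or Slc3a2. The stretches that hold them are shown because they place the element relative to each start. Capitals mark the letters or their reverse complement, and each stretch is written 5′ to 3′ along the gene's strand.
Chac1: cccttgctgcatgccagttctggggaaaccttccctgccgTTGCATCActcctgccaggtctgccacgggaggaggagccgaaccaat
Asns: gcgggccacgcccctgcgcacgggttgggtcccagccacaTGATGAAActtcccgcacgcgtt
Slc7a11: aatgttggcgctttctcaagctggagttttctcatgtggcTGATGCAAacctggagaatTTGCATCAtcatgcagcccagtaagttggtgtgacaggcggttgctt
Trib3: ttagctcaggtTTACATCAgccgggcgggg
The Chac1 stretch is chr2:119351009-119351096 on the plus strand, with the match starting at base -193. The Asns stretch is chr6:7693210-7693272 on the minus strand, with the match at base -23. The Slc7a11 stretch is chr3:50443614-50443719 on the minus strand and holds 2 matches, at bases -66 and -47, in opposite orientations. The Trib3 stretch is chr2:152344028-152344057 on the minus strand, and its match begins 15 bases into the transcribed sequence. A match is a description of the letters and does not show binding.

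Slc7a3 and Chac1 rose in dcKO, and the other 8 genes were not called there. None of the 10 genes was called in Sox11 cKO. A gene was called when the adjusted p from limma was below 0.05 and the absolute log2 fold change was above 1.5. The median log2 fold change of the 10 genes was 0.77 in Sox4 cKO, -0.38 in Sox11 cKO and 0.62 in dcKO, against 0, 0 and -0.01 over all named genes. In dcKO, 2 of the 10 were called higher and 0 lower, against 0.562% of all genes called higher and 0.833% called lower. At an unadjusted limma p below 0.05, 6 of the 10 were higher in dcKO (Slc7a3, Slc7a5, Slc1a5, Asns, Trib3 and Chac1) and 0 lower, where 8.64% of all genes were higher and 11.1% lower. In Sox11 cKO, 0 of the 10 were called, against 0.0374% called higher and 0.14% called lower. There limma gave an unadjusted p below 0.05 for 4 of them, Slc3a2, Slc38a2, Asns and Ddit3, all lower. By that rule 5.72% of all genes were lower and 5.02% higher. A limma fit to the deposited log2 ratios, made without the dye term of the main model, gave 0 calls as well. In Sox4 cKO, 1 of the 10 passed the same limits, beside 0.0608% of all genes higher and 0.0983% lower. That 1 gene is Slc7a3, and nothing is read from this count because the gene was chosen for it.

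**Figure D1:**
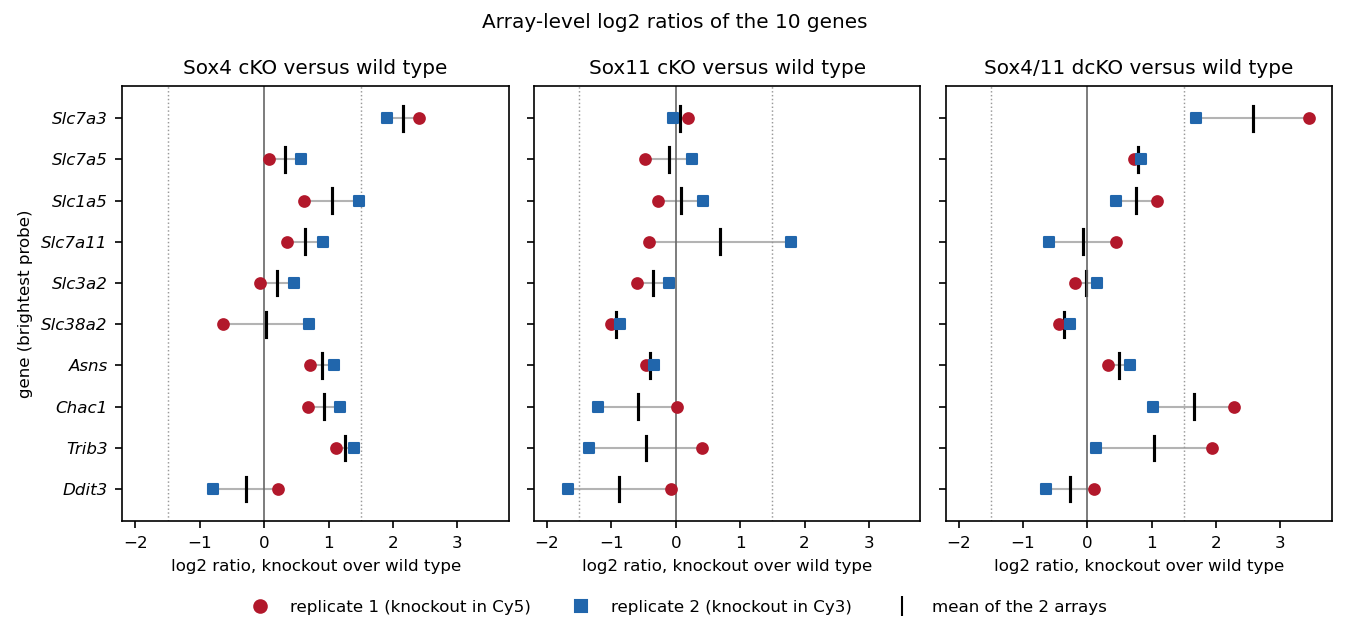
log2 ratios of knockout over wild type (x axis) for each of the 10 genes (y axis) in the 3 genotypes, with 1 point per array, a black bar at the mean of the 2 arrays and dotted lines at the fold limit of 1.5. Slc7a3 lies at 1.91 and 2.41 in Sox4 cKO and at 1.69 and 3.45 in dcKO, but at -0.05 and 0.19 in Sox11 cKO.

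Slc7a3 had the widest range of ratios of the 6 transporters chosen. Its ratio was 3.45 on dcKO replicate 1 and 1.69 on dcKO replicate 2, a mean log2 fold change of 2.57 ± 1.25 (SD, n = 2), or 5.94-fold. In limma this gave a model SE of 0.25 and an adjusted p of 0.00567. Both dcKO levels, 8.87 and 7.43 in log2 intensity, were above the wild-type levels of the same arrays, 5.42 and 5.74, with no overlap. The call was lost without dcKO replicate 1, where the log2 fold change was 1.88 and limma's adjusted p 0.0632. It was also lost with an offset of 50 (1.92, adjusted p = 0.0614) and with processed signals (3.60, adjusted p = 0.223).

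The Slc7a3 ratios in Sox11 cKO were 0.19 and -0.05, and neither channel of replicate 1 was well above background. The mean was 0.07 ± 0.17 (SD, n = 2), with a 95% interval from limma of -0.53 to 0.66. Knockout and wild-type levels overlapped there. The difference between dcKO and Sox11 cKO was 2.50 (interval 1.66 to 3.34, limma adjusted p = 0.0425). This was the 1 of the 10 genes called in that difference, against 0.412% of all genes called higher and 0.374% called lower. At an unadjusted limma p below 0.05, 6 of the 10 were higher in dcKO than in Sox11 cKO (Slc7a3, Slc7a5, Asns, Trib3, Ddit3 and Chac1) and 0 lower, where 7.39% and 8.85% of all genes were. The call rests on narrow margins. Limma's adjusted p was 0.165 without the dye term, 0.0632 without either Sox4 cKO replicate and 0.117 without dcKO replicate 1.

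In Sox4 cKO, the knockout that chose the gene, Slc7a3 stood at ratios of 2.41 and 1.91, a mean of 2.16 ± 0.36 (SD, n = 2). Its wild-type levels on those arrays were 7.54 and 6.35, above the 5.15 to 5.74 of the wild-type channels on the other 4 arrays. Over all 6 arrays the wild-type levels of Slc7a3 spanned 2.39 on the log2 scale. Each ratio is taken against the wild-type channel of its own array, so the level of that channel enters the ratio. Across arrays, the dcKO replicate 2 level of 7.43 was below the 7.54 of the wild-type channel of Sox4 cKO replicate 1.

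**Figure D2:**
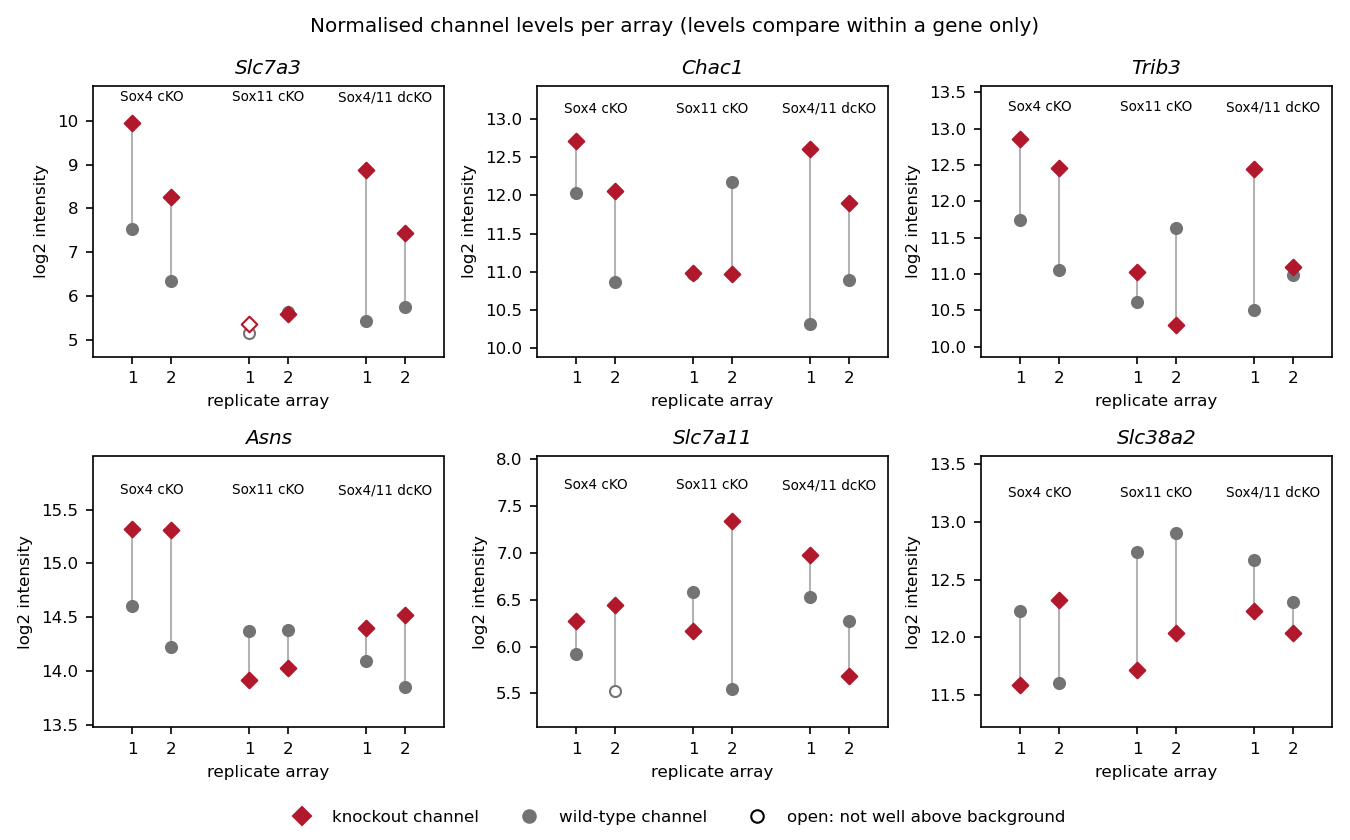
Normalised log2 intensity (y axis) of the knockout and wild-type channels on each of the 6 arrays (x axis, replicate arrays within a genotype) for 6 of the 10 genes, with open symbols where a channel was not well above background. The wild-type levels of Slc7a3 are 7.54 and 6.35 on the Sox4 cKO arrays and 5.15 to 5.74 on the others, and its dcKO levels of 8.87 and 7.43 lie above the wild-type levels of the dcKO arrays, 5.42 and 5.74.

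Of the heavy and light chains, Slc7a5 was the most even in dcKO, with ratios of 0.73 and 0.83. Its mean of 0.78 ± 0.07 (SD, n = 2) missed the threshold in limma (adjusted p = 0.068), and a second probe of the gene gave 0.18. Both dcKO levels of the first probe, 9.12 and 9.91, lay above the wild-type levels of those arrays, 8.39 and 9.09, though by only a little at the closest pair. In Sox11 cKO its ratios were -0.48 and 0.26, opposed in sign, and the probes gave -0.11 and 0.17. In Sox4 cKO the ratios were 0.07 and 0.58.

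Slc3a2, the shared heavy chain, was on either side of wild type in dcKO, with ratios of -0.19 and 0.15 and a 95% interval of -0.36 to 0.31. It was lower on both Sox11 cKO arrays, at -0.60 and -0.11, a mean of -0.35 ± 0.34 (SD, n = 2) with a limma adjusted p of 0.695. In Sox4 cKO the ratios were -0.07 and 0.46. The heavy chain thus showed no called difference in either tested knockout.

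Slc7a11, the cystine carrier, had replicates of opposite sign in both tested knockouts. Its ratios were -0.41 and 1.79 in Sox11 cKO and 0.45 and -0.59 in dcKO. The limma means were 0.69 (interval -0.36 to 1.73) and -0.07 (interval -1.11 to 0.98). In Sox4 cKO both ratios were above 0, at 0.35 and 0.91. Leaving out Sox11 cKO replicate 1 made it a called gene there (1.91, a value from 1 array), and leaving out replicate 2 turned the sign, with a value of -0.54.

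Slc1a5, the glutamine carrier, had ratios of 1.08 and 0.44 in dcKO, with both above 0. The mean was 0.76 ± 0.46 (SD, n = 2) and limma's adjusted p was 0.24, with dcKO and wild-type levels overlapping between arrays. The mean was 0.05 without dcKO replicate 1, 1.47 without replicate 2 and 0.23 with median centring. In Sox11 cKO the ratios were -0.27 and 0.42, and the probes of the gene differed in direction there, at 0.08 and -0.15. In Sox4 cKO the ratios were 0.62 and 1.48.

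Slc38a2 lay below wild type on all 4 arrays without Sox11. Its ratios were -1.01 and -0.86 in Sox11 cKO and -0.44 and -0.27 in dcKO. In Sox11 cKO the mean was -0.94 ± 0.11 (SD, n = 2), with an unadjusted limma p of 0.00391 and an adjusted p of 0.306. The knockout levels of 11.72 and 12.04 did not overlap the wild-type levels of 12.74 and 12.90. In dcKO the mean was -0.36 with an adjusted p of 0.629 in limma. The Sox4 cKO arrays disagreed, at -0.64 and 0.70.

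Asns, which makes asparagine from aspartate, lay below wild type on both Sox11 cKO arrays and above it on both dcKO arrays, and neither mean was called. Its ratios were -0.46 and -0.34 in Sox11 cKO, a mean of -0.40 ± 0.08 (SD, n = 2) with an adjusted p of 0.605 in limma. In dcKO they were 0.32 and 0.66, a mean of 0.49 ± 0.25 (SD, n = 2) with an adjusted p of 0.176. In both knockouts the knockout levels did not overlap the wild-type levels of the same arrays. Over all arrays the wild-type levels ran from 13.85 to 14.6, and the levels of both knockouts lay within that range. The dcKO levels were 14.4 and 14.52, and the wild-type levels of the dcKO arrays, 14.09 and 13.85, were the lowest of any array. The difference between dcKO and Sox11 cKO was 0.89 (interval 0.41 to 1.38, limma adjusted p = 0.143). The sign of the dcKO value depended on the scaling, since median centring in place of loess gave -0.04. In Sox4 cKO, described without a test, Asns was at 0.72 and 1.09.

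Chac1, which breaks down glutathione, was the other gene called in dcKO. Its ratios were 2.28 and 1.02, a mean of 1.65 ± 0.89 (SD, n = 2), or 3.14-fold, with a model SE of 0.30 and an adjusted p of 0.0418 in limma. The dcKO levels of 12.60 and 11.90 lay above the wild-type levels of the same arrays, 10.31 and 10.89. Across arrays, the dcKO replicate 1 level was above every wild-type level. That of dcKO replicate 2 was below the wild-type levels of Sox11 cKO replicate 2 (12.17) and Sox4 cKO replicate 1 (12.03). The 10.31 of dcKO replicate 1 was the lowest wild-type level of any array. The call was lost without either dcKO replicate, with log2 fold changes of 1.20 and 2.10 and limma adjusted p of 0.465 and 0.214. It was also lost without the dye term (adjusted p = 0.0998), with median centring (log2 fold change 1.1) and with dim probes left out (adjusted p = 0.0576).

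The Chac1 ratios in Sox11 cKO were 0.02 and -1.20, a mean of -0.59 ± 0.87 (SD, n = 2) with an adjusted p of 0.817 in limma. The knockout levels there were nearly equal, at 10.99 and 10.97, while the wild-type levels were 10.97 and 12.17, which differed more. The difference between dcKO and Sox11 cKO was 2.24 (interval 1.25 to 3.23), with an adjusted p of 0.0845. In Sox4 cKO the ratios were 0.68 and 1.18, both above 0.

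Trib3, a pseudokinase that dampens Akt and Atf4 signalling, had unequal ratios above 0 on the dcKO arrays, at 1.93 and 0.13. The mean of 1.03 ± 1.27 (SD, n = 2) had an adjusted p of 0.227 in limma. In Sox11 cKO the ratios were 0.41 and -1.34, and the interval ran from -1.26 to 0.33. Its Sox4 cKO ratios, 1.12 and 1.40, were the closest pair of the 3 genotypes.

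Ddit3, which encodes the proapoptotic factor CHOP, had the lowest means of the stress genes. Its ratios were 0.11 and -0.64 in dcKO, a mean of -0.26 ± 0.53 (SD, n = 2) with an adjusted p of 0.67 in limma. In Sox11 cKO they were -0.08 and -1.67, a mean of -0.87 ± 1.13 (SD, n = 2) with an unadjusted p of 0.00161 and an adjusted p of 0.215. Its wild-type levels spanned 6.89 to 9.26, a range of 2.37, while its knockout levels spanned 7.01 to 8.70. In Sox4 cKO the ratios were 0.22 and -0.79.

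Counting arrays rather than means, 6 of the 10 genes were higher on both dcKO arrays and 1 was lower on both, where 28.4% and 32% of all genes were. In Sox11 cKO the counts were 0 and 4, where 22.3% and 22.8% of all genes were. In Sox4 cKO they were 7 and 0, beside 25.9% and 25.4%. In the last case Slc7a3 is among the 7 by choice. These counts are a description, since genes are not independent replicates.

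By the root mean square difference over the 6 arrays, the ratios most like those of Slc7a3 among 12597 genes were those of Gcnt3 (0.49 on the log2 scale), Adm2 (0.91) and Gphn (0.94). Gcnt3, a glycosyltransferase of mucin-type glycans, had ratios of 2.43 and 1.73 in Sox4 cKO, 0.02 and -0.19 in Sox11 cKO, and 2.46 and 2.29 in dcKO. Adm2, which encodes a secreted peptide of the calcitonin family, had 1.53 and 1.5, 0.46 and 0.16, and 1.49 and 1.61. Both stood higher on all 4 arrays without Sox4 than on either Sox11 cKO array. Since the match uses the Sox4 cKO ratios, it is a description.

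The rest of the pathway was read from 8 further lists with 102 genes, of which 101 had a probe. In dcKO, Psph, Adm2 and Vldlr were called higher and the transporters Slc7a8 and Slc38a1 lower, and in Sox11 cKO 0 of these genes were called in limma, with 22 at an unadjusted p below 0.05, of which 11 were higher and 11 lower, where 5.02% and 5.72% of all genes were. In dcKO 31 of the 101 had such a p, 20 higher and 11 lower, where 8.64% and 11.1% of all genes were. All 5 dcKO calls were lost with the larger background offset of 50 and with processed signals.

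Among 29 other amino acid transporters, 2 were called lower in dcKO, where 0.833% of all genes were, and 9 were above background in 0 channels. At an unadjusted limma p below 0.05, 2 were higher and 6 lower in dcKO, where 8.64% and 11.1% of all genes were. Slc7a8, a light chain for neutral amino acids that pairs with Slc3a2, had ratios of -2.24 and -3.08 in dcKO, a mean of -2.66 ± 0.60 (SD, n = 2) with an adjusted p of 0.0104 in limma. Its dcKO levels of 5.75 and 5.45 lay within the 5.26 to 6.57 of all 8 channels on the other arrays, and the wild-type channels of the dcKO arrays, at 7.98 and 8.53, were the ones that stood apart. Its Sox11 cKO ratios were -0.96 and 0.35. Without dcKO replicate 2 its call was lost (-1.77, adjusted p = 0.119). Slc38a1, a sodium-coupled glutamine carrier, had -1.18 and -1.98 in dcKO, a mean of -1.58 ± 0.56 (SD, n = 2) with a limma adjusted p of 0.00838. That call was lost without either dcKO replicate (-1.23 and -1.93, each a value from 1 array). It was also lost without the dye term (adjusted p = 0.191) and, by size, with its 3 probes averaged (-1). In Sox11 cKO the Slc38a1 ratios were -0.12 and -1.60, a mean of -0.86 with an unadjusted limma p of 0.00148 and an adjusted p of 0.203. In Sox4 cKO they were 0.44 and -1.06. The wild-type levels of Slc38a1 spanned 3.14 on the log2 scale. The other transporters of the list were not called, and the median of the list was -0.05.

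The kinases and phosphatase subunits around eIF2 had 7 genes, all above background in all channels, with 0 called in any knockout and a dcKO median of -0.23. At an unadjusted limma p below 0.05, 0 were higher and 1 lower in dcKO, where 8.64% and 11.1% of all genes were. Eif2ak2, the kinase PKR, was at -0.47 (limma adjusted p = 0.221) and Eif2ak4, the amino acid sensor GCN2, at 0.35 (adjusted p = 0.399). Of 7 genes for Atf4 and its partner factors, 0 were called in dcKO, with 2 higher and 2 lower at an unadjusted limma p below 0.05. With no fold limit, Atf3 fell, by 1.25 on the log2 scale (adjusted p = 0.0266), where 2.13% of all genes were lower by that rule and 1.46% higher. Its ratios were -1.16 and -1.34. Across all settings its dcKO value ranged from -1.69 to -0.84, and its limma adjusted p was not below 0.05 in every setting. Atf5 was at 1.01 (adjusted p = 0.176) in dcKO and at -1.10 (adjusted p = 0.394) in Sox11 cKO. Atf4 itself, looked up after the values were seen, had ratios of 0.42 and -0.67 in dcKO, 0.24 and -0.63 in Sox11 cKO and 1.18 and 0.61 in Sox4 cKO. Its dcKO mean was -0.12 with an adjusted p of 0.855 in limma. The arrays measure mRNA and not the translation through which Atf4 is mainly controlled.

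Of 12 measured enzymes of serine, one-carbon, proline and aminotransferase metabolism, 1 was called higher in dcKO, where 0.562% of all genes were. At an unadjusted limma p below 0.05, 2 were higher and 0 lower, where 8.64% and 11.1% of all genes were. Psph, the last enzyme of serine synthesis, had ratios of 1.96 and 1.06, a mean of 1.51 ± 0.64 (SD, n = 2) with an adjusted p of 0.019 in limma. That call was lost without either dcKO replicate (adjusted p = 0.286 and 0.183), without the dye term (adjusted p = 0.0651) and with median centring (0.97). Gpt2, the mitochondrial alanine aminotransferase, had 1.35 and 1.09 with an adjusted p of 0.0535. The list median was 0.26. None of the 12 aminoacyl-tRNA synthetases, which charge tRNAs with amino acids, was called in dcKO by limma, with 2 at an unadjusted p below 0.05 and a median of 0.04. Sars was at 0.49 (adjusted p = 0.258) and Nars at 0.44 (adjusted p = 0.261), and both turned below 0 with median centring.

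Of 12 other Atf4-responsive stress genes, 2 were called higher in dcKO, Adm2 and Vldlr, where 0.562% of all genes were. The list median was 0.67. At an unadjusted limma p below 0.05, 8 were higher and 0 lower, where 8.64% and 11.1% of all genes were. Adm2 had dcKO ratios of 1.49 and 1.61, a mean of 1.55 ± 0.08 (SD, n = 2) with an adjusted p of 0.00546 in limma. That call was lost without dcKO replicate 1 (adjusted p = 0.0864) or replicate 2 (0.129), and its fold dropped under the limit with median centring (1.25). Stc2, a secreted glycoprotein named after its values were seen, rose with no fold limit (1.11, limma adjusted p = 0.0262) and was well above background in 7 of 12 channels. Across all settings its dcKO value ranged from 0.68 to 2.47, and its adjusted p was not below 0.05 in every setting.

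Vldlr, a lipoprotein receptor, was the gene of these lists that differed most between the tested knockouts. Its ratios were -1.84 and -3.99 in Sox11 cKO and 2.56 and 2.01 in dcKO. The limma means were -2.92 (adjusted p = 0.0518) and 2.28 (adjusted p = 0.0269), and the difference of 5.20 was called (adjusted p = 0.0135). In Sox4 cKO its ratios were -0.56 and -0.18. Its wild-type levels ran from 6.46 to 10.85 over the 6 arrays, a range of 4.39. The calls in dcKO and in the difference were lost without either dcKO replicate (adjusted p of 0.258 and 0.359 in dcKO, 0.0892 and 0.147 for the difference), and the dcKO call also without the dye term (0.0657) and with both probes averaged (0.0625). The call of the difference was lost with an offset of 50 (0.148) and with processed signals (0.349). In Sox11 cKO the gene was called with median centring (-2.94, limma adjusted p = 0.0316) and without either Sox4 cKO replicate (adjusted p = 0.0391). It was also called there with the authors' ratios, fitted without the dye term (-2.92, adjusted p = 0.0106). Its log2 fold change there was -3.95 without Sox11 cKO replicate 1 and -1.89 without replicate 2.

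Chaperones and unfolded protein response genes of the endoplasmic reticulum numbered 16, with 0 called in any knockout. Their median was 0.46 in Sox11 cKO, where 14 of 16 were above 0. There 8 had an unadjusted limma p below 0.05, all higher, where 5.02% of all genes were higher and 5.72% lower. The median was 0.16 in dcKO, where 3 were higher and 1 lower at that p, against 8.64% and 11.1% of all genes. In Sox4 cKO it was -0.27, with 0 of 16 above 0. Dnajb9 was at 0.68 (limma adjusted p = 0.196) and Xbp1 at 0.39 (adjusted p = 0.291) in dcKO. Of 6 Nrf2 target genes, which respond to oxidative stress, 0 were called in dcKO and 2 had an unadjusted p below 0.05, with Txnrd1 at -1.15 (adjusted p = 0.0582) and Srxn1 at 1.15 (adjusted p = 0.148) in dcKO.

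**Figure D3:**
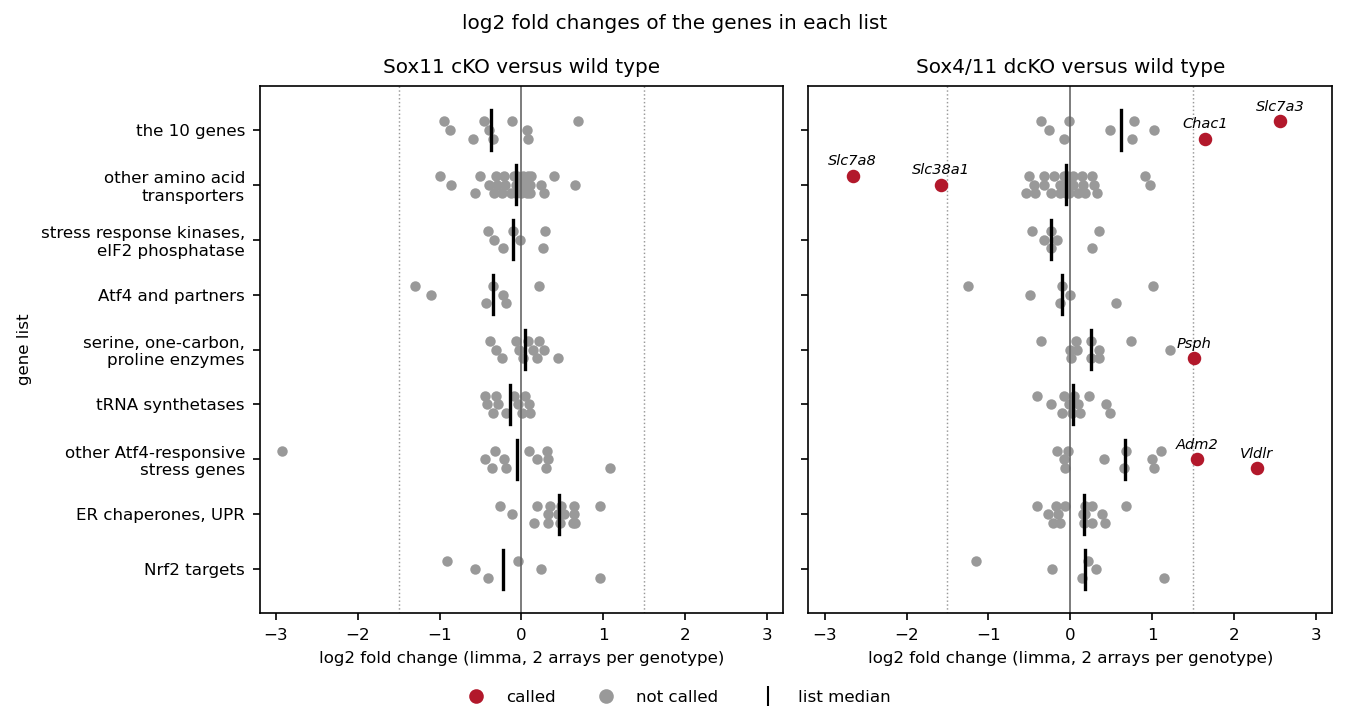
log2 fold changes from limma (x axis) of the genes in each list (y axis) in Sox11 cKO and Sox4/11 dcKO, with 1 point per gene, the list median as a black bar, called genes in red and named, and dotted lines at the fold limit of 1.5. In Sox11 cKO 0 genes are called, and in dcKO the called genes are Slc7a3, Chac1, Psph, Adm2 and Vldlr above 0 and Slc7a8 and Slc38a1 below.

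Among the 20 marker genes for keratinocytes, fibroblasts, melanocytes and immune cells, 0 were called by limma in any of the 3 knockouts. In dcKO 4 had an unadjusted limma p below 0.05, all lower, where 11.1% of all genes were lower and 8.64% higher. Of these 4, 3 were among the 5 keratinocyte markers and 1 among the 5 melanocyte markers. In Sox11 cKO 2 of the 20 had such a p, both keratinocyte markers and both lower. There 5.72% of all genes were lower and 5.02% higher. In dcKO the keratinocyte markers Itga6 and Trp63 were at -0.81 (limma adjusted p = 0.0688) and -0.50 (adjusted p = 0.232). Of the 5 keratinocyte markers 2 had means above 0 there: Krt5, with ratios of 0.81 and -0.03, and Krt14, with 0.63 and -0.03. The fibroblast marker Col1a2 was at 0.43 (adjusted p = 0.469), the melanocyte marker Mlana at -0.64 (adjusted p = 0.267) and the immune marker Cd3e at 0.31 (adjusted p = 0.517). The next markers of those lists by p, Thy1, Dct and Cd74, were not well above background on any dcKO array, so no difference is given for them. Of the 4 immune markers, only Cd3e was well above background in all 12 channels, with Cd74 in 1 channel and 1 marker in 0. Of the 5 melanocyte markers, 0 were above background in all channels and 2 were in 0 channels. The part of these markers in the results above was not tested.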

How the data were processed

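The deposited scanner files hold median spot and background intensity values, which the authors extracted from 2-colour mouse arrays (Agilent Feature Extraction 11.0.1.1, per the submitters' processing notes), with flags for other properties of a spot. The same deposited files hold processed intensity values and a log10 ratio of them, and the authors also deposited log2 ratios made with limma. Here median intensity values were background corrected with normexp (offset 16) in limma 3.58.1 (R 4.3.3), and control spots were then left out. Loess normalisation within each array gave outlier spots no weight, and these were left out afterwards. Spots of a probe were then averaged. Channel levels are log2 values after a further between-array step (Aquantile), and a level was compared only within a probe. Of the probes, 28331 were matched by accession to RefSeq gene names, and a gene was read from its brightest probe.

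A limma model over all 6 arrays had a term for each genotype and a dye term, which is identical to a replicate block, and left 2 residual degrees of freedom with 5.37 from the prior. P-values were adjusted over all 55681 probes by Benjamini-Hochberg. SD is over the 2 ratios and includes the dye difference, while SE comes from the model. Same-numbered arrays deviated together (correlations of 0.316, 0.244 and 0.125). All arrays shared 1 slide and 1 scan. Per the file flags, 194 to 288 outlier spots and 0 saturated spots were marked per array. The script was tested on simulated data. Alternatives changed the dye term, background offset, normalisation, probe filter, probe choice and the arrays used.

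The genes and lists were chosen with earlier results of these data known. From each further list, genes called in Sox11 cKO or dcKO were named, filled up to 2 by the lowest dcKO p. For Pycr1 no probe was matched. Alternatives for the genes of the further lists were added after seeing the data. Array precision is limited by the number of arrays.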

Additional observations from a re-analysis of the deposited data

Results flagged for a closer look

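Slc7a3 differed between knockouts: its log2 fold change in Sox4/11 dcKO exceeded that in Sox11 cKO by 2.50, and this difference itself passed limma's contrast test (adjusted p = 0.0425), with ratios of 3.45 and 1.69 against 0.19 and -0.05. Vldlr also differed, by 5.20 (adjusted p = 0.0135), with both dcKO arrays higher and both Sox11 cKO arrays lower than wild type. Both calls were lost without dcKO replicate 1, with adjusted p of 0.117 for Slc7a3 and 0.0892 for Vldlr, and that of Vldlr also without replicate 2 (0.147), with offset 50 (0.148) and with processed signals (0.349). The Slc7a3 call was lost without either Sox4 cKO replicate (0.0632), without the dye term (0.165), with offset 50 (0.161) and with processed signals (0.385).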

How the results depend on the processing

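Of the 10 genes, 2 were called in dcKO, 1 in the difference between dcKO and Sox11 cKO, 0 in Sox11 cKO and, as a description, 1 in Sox4 cKO. Without the dye term, which is the replicate block, these counts were 1, 0, 0 and 0. With offset 50 or Feature Extraction processed signals they were 0 in each comparison. Over all genes, processed signals gave 0 calls and offset 50 gave 14 higher and 37 lower in dcKO. With dim probes left out, 1 gene was called in dcKO and 0 in the difference and in Sox4 cKO, which also had 0 with the dye effect subtracted first. Median centring left 1 in dcKO, and the authors' ratios, fitted without the dye term, gave 2 in the difference. Leaving out 1 array at a time gave 0 to 2 in dcKO (0 without dcKO replicate 1, Slc7a3 alone without replicate 2), 0 to 3 in the difference (0 without dcKO replicate 1, 3 without Sox11 cKO replicate 1), 0 to 1 in Sox11 cKO (Slc7a11 without replicate 1) and 0 to 1 in Sox4 cKO (0 without either of its replicates). The gene called in the difference was Chac1 (adjusted p = 0.0241) and not Slc7a3 without either Sox4 cKO replicate and with the arrays of those genotypes alone. A lone array left in a genotype is assumed to vary like the others.

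Median centring moved the median of all genes in dcKO to -0.09 and that of 3918 genes with a mean level of at least 10 to -0.60 (-0.05 with loess), and the median of the 10 genes from 0.62 to 0.10. It turned Asns (-0.04), Eif2ak4 (-0.16), Sars (-0.05), Nars (-0.10), Xbp1 (-0.16) and Cd3e (-0.22) in dcKO, and Slc3a2 in the difference (-0.23). Averaging the probes of a gene turned Slc7a5 (0.03) and Slc1a5 (-0.04) in Sox11 cKO. With single arrays left out, uncalled values turned as follows. In Sox11 cKO, Slc7a3 ranged from -0.37 to 0.51, Slc7a5 from -0.32 to 0.11, Slc7a11 from -0.54 to 1.91, Slc1a5 from -0.22 to 0.37 and Trib3 from -0.95 to 0.03. In dcKO, Slc7a11 ranged from -1.28 to 1.14, Slc3a2 from -0.11 to 0.06, Ddit3 from -0.54 to 0.01 and Atf4 from -0.31 to 0.06. In the difference, Slc7a11 ranged from -1.98 to 0.47 and Slc1a5 from -0.03 to 1.39. The cause was not tested. Across all settings, dcKO values ranged from 0.26 to 1.04 for Slc7a5, 0.05 to 1.47 for Slc1a5, 0.49 to 1.56 for Trib3 and -0.89 to -0.07 for Slc38a2. Mean spot signals were not tried. Slc7a3 was well above background in 10 of 12 channels, Slc7a11 in 11 and the other 8 genes in all 12.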
